A study of Homo sapiens with 6 samples.

Results

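The genes described here are the 7 cyclin-dependent kinase (CDK) inhibitors of the human CIP/KIP family (CDKN1A, CDKN1B, CDKN1C) and INK4 family (CDKN2A, CDKN2B, CDKN2C, CDKN2D). They were picked by gene symbol as the members of both families, with earlier results of these data known, and all 7 were found among the 57820 genes in each table. Their RNA was measured in U266, a human multiple myeloma cell line, in 3 MYC libraries and 3 control libraries. The MYC cells were transduced with a lentiviral vector carrying C-MYC behind EF1A, a promoter active in most cell types. The control cells are labelled only as control. Whether they carry an empty vector is not given in the sources used here, so an effect of transduction cannot be told apart from that of MYC. All 6 libraries came from U266 grown in RPMI-1640 with serum and antibiotics, and no label says that replicates of a group were separate cultures. P-values therefore measure the spread between these libraries, which may be technical.

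Both inhibitor families brake the cell cycle by binding CDKs. INK4 proteins bind CDK4 and CDK6 and keep the D-type cyclins from activating them, which holds RB in its growth-restraining form. CIP/KIP proteins bind whole cyclin and CDK complexes, above all those of CDK2 with cyclin E or cyclin A. MYC is a transcription factor that binds the sequence CACGTG, the E-box, together with MAX. In other cell systems it lowers transcription of CDKN1A and CDKN2B through the factor MIZ1, encoded by ZBTB17. In myeloma, CDKN2C lies in a region of chromosome 1 that is often deleted, and D-type cyclins are often deregulated.

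The promoters of CDKN1A and CDKN2D are shown because these genes had the largest decreases with no correction for GC content, and those of CDKN2C because its 3 windows differ in the letters searched. Each line runs from 250 bases before to 50 bases after a RefSeq start site, 5′ to 3′ on the gene's strand, in build GRCh38.p14. Capitals mark CACGTG and the GC box GGGCGG, searched on both strands, so a GC box on the other strand reads CCGCCC. The CDKN1A window lies at chr6:36678464-36678763 on the plus strand. The CDKN2D window lies at chr19:10568930-10569229 on the minus strand. The CDKN2C windows lie on the plus strand at chr1:50960495-50960794, chr1:50968456-50968755 and chr1:50969995-50970294, named outer, middle and inner here.
CDKN1A promoter: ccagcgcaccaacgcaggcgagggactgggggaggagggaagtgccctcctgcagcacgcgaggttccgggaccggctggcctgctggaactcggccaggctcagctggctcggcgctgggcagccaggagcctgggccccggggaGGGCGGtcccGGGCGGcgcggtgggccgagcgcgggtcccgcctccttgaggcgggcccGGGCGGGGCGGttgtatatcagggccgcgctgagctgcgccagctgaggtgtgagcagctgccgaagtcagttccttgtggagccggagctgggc
CDKN2D promoter: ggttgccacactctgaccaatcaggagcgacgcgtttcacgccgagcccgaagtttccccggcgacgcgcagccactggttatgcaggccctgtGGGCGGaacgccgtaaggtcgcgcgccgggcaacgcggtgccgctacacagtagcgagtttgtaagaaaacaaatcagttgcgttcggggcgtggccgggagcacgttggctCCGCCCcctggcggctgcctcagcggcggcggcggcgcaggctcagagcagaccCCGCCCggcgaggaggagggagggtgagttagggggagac
CDKN2C outer promoter: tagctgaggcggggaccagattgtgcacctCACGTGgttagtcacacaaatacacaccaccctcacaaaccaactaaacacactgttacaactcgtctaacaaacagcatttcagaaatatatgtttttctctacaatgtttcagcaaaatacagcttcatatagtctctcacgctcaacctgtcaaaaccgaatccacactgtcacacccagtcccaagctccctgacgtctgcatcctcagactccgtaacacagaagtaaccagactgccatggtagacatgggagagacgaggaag
CDKN2C middle promoter: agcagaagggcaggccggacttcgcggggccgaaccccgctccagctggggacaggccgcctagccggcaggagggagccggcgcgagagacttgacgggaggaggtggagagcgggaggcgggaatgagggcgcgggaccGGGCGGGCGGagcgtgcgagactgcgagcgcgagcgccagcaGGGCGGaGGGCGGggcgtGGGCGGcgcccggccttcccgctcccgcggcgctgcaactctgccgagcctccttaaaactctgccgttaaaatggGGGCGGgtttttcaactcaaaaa
CDKN2C inner promoter: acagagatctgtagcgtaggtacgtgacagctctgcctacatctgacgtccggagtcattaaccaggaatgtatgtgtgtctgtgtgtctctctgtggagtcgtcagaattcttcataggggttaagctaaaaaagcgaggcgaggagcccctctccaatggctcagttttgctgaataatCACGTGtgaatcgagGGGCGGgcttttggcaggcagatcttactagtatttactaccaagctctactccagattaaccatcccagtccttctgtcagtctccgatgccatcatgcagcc

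RefSeq promoter windows were found for 6 of the 7 genes, 9 windows in all. The E-box letters were present in 2 of these 9 windows, against 7.26% of the 35116 promoter windows in the whole table. Both belong to CDKN2C, with the E-box at position -220 relative to the outer start site and at -69 relative to the inner one. The GC box letters, which SP1-family factors can bind, were present in 7 of the 9 windows, against 45.0% of all windows. CDKN1A had 4 GC boxes, the middle CDKN2C promoter had 6, in both cases with some of them sharing letters, and CDKN2D had 3. These matches describe letters in a window and say nothing of binding.

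Library depth differed widely: summed expected counts were 27139978, 158667309 and 52816733 in MYC libraries 1, 2 and 3, and 55026416, 77933587 and 130576913 in control libraries 1, 2 and 3. MYC itself averaged 102.6 ± 9.43 CPM, read counts scaled to library size, in MYC libraries and 4.20 ± 0.305 CPM in control libraries (SD, n = 3 each). On the log2 scale MYC was higher by 4.60 ± 0.10 (SE, adjusted p = 9.71e-08 by edgeR's quasi-likelihood test), so the targeted gene matched the labels in all 6 libraries. Of 10 plasma cell markers, 9 had a mean over 5 CPM, and their summed level was 3425 to 3789 CPM in MYC libraries, against 4515 to 4893 CPM in control libraries. Of 17 markers of other cell types, 2 had a mean over 5 CPM, none was at 0 in all libraries, and their sum was 30.91 to 35.81 CPM in MYC libraries, against 24.67 to 30.37 CPM in control libraries. Their part in the results below was not tested.

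In CPM, with no correction for transcript length or GC content, 4 of the 7 genes were called lower in MYC-transduced cells than in control cells. CDKN1A fell 3.60-fold, CDKN2D 2.17-fold, CDKN1B 1.36-fold and CDKN2C 1.25-fold. CDKN2A and CDKN2B did not pass the test, and CDKN1C was too low for the expression filter. Over all 17679 genes tested, 32.1% were called lower and 28.8% higher at an adjusted p under 0.05, so a call by itself was common in this comparison. In CPM the MYC libraries all lay below the control libraries for the same 4 genes, as they did for 35.1% of the genes tested. The median log2 fold change over all genes tested was -0.02. Fold changes in these libraries also moved with the GC content of the transcripts, the median being 0.24 on the log2 scale for 4907 genes with under 44% GC and -1.13 for 2180 genes with over 60%. Each gene is therefore given a second time after each library's trend on GC content was removed (the GC offset). With that offset CDKN1A, CDKN1B and CDKN2D were called lower and CDKN2A higher, against a background of 32.2% lower and 27.1% higher among 17049 genes. CDKN2D was then only 1.14-fold lower, and CDKN2C was not called (adjusted p = 0.0884, edgeR). CDKN2C also lost its call in TPM, as given below. In bulk RNA of this kind, fewer cells expressing a gene and less RNA per cell cannot be told apart.

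**Figure D1:**
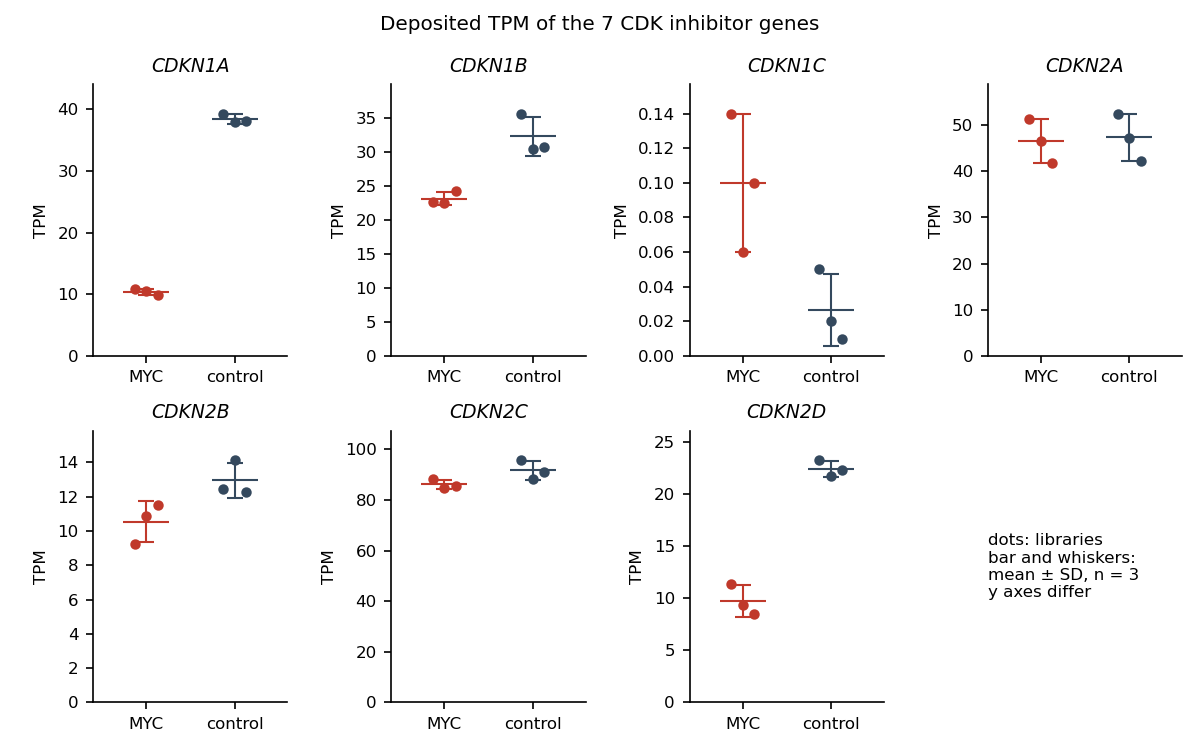
Length-scaled transcript abundance (TPM, y axes from 0 and differing between panels) of the 7 genes in each MYC and control library, with mean and SD. The MYC libraries lie below every control library for CDKN1A, CDKN1B, CDKN2B and CDKN2D (as for 34% of genes tested), and the groups overlap for CDKN2A and CDKN2C.

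CDKN1A (ENSG00000124762.9, chromosome 6) encodes p21, which inhibits CDK2 complexes and binds the replication clamp PCNA. Its level was 10.82, 10.48 and 9.83 TPM in MYC libraries 1, 2 and 3, against 39.28, 37.84 and 38.07 TPM in control libraries 1, 2 and 3. The groups did not overlap, and the spread within each was under 1 TPM: 10.38 ± 0.503 TPM in MYC libraries and 38.4 ± 0.774 TPM in control libraries (SD, n = 3 each). On the CPM scale its log2 fold change came to -1.85 ± 0.08 (SE, adjusted p = 1.04e-06, edgeR). Among the 17679 genes tested, 3.34% had a lower fold change. Its transcripts have a GC content of 58.6%, and with the GC offset the decrease was 2.41-fold (log2 fold change -1.27 ± 0.04, adjusted p = 3.02e-08, edgeR). Over the 25 settings run, which include each library left out in turn, the log2 fold change ran from -1.90 to -1.25, with adjusted p up to 3.65e-05.

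CDKN1B (ENSG00000111276.6, chromosome 12) encodes p27, an inhibitor of CDK2 complexes whose protein level is set largely by degradation through SKP2. The files gave 22.63, 22.56 and 24.28 TPM in MYC libraries 1, 2 and 3, against 35.67, 30.5 and 30.72 TPM in control libraries 1, 2 and 3. All MYC libraries were lower than all control libraries, and control library 1 stood above the other controls. On the CPM scale its log2 fold change came to -0.44 ± 0.06 (SE, adjusted p = 0.000477, edgeR). This size was common: 28.4% of the genes tested had a lower fold change. Unlike CDKN1A, its transcripts have a low GC content (47.2%), and with the GC offset the decrease was larger, at 1.56-fold (log2 fold change -0.64 ± 0.05, adjusted p = 7.29e-06, edgeR). The range over the 25 settings was -0.70 to -0.41, with adjusted p up to 0.00466.

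The balance of these CIP/KIP genes changed with MYC. CDKN1A over CDKN1B, both in TPM, was 0.478, 0.465 and 0.405 in MYC libraries 1, 2 and 3, against 1.10, 1.24 and 1.24 in control libraries 1, 2 and 3. CDKN1B was thus the more abundant of the pair in every MYC library and CDKN1A in every control library. The mean ratio was 2.65-fold lower in MYC libraries, and 1.55-fold lower when the fold changes with the GC offset were used in place of the TPM. The summed CIP/KIP level was 33.63 ± 0.556 TPM in MYC libraries and 70.72 ± 3.71 TPM in control libraries (SD, n = 3 each).

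CDKN1C (ENSG00000129757.8, chromosome 11) encodes p57 and is expressed from the maternal allele in most tissues. It was close to absent from these cells, with 3, 8 and 4 counts in MYC libraries 1, 2 and 3 and 2, 1 and 2 counts in control libraries 1, 2 and 3. These are 0.14, 0.06 and 0.10 TPM in MYC libraries, against 0.05, 0.02 and 0.01 TPM in control libraries. The ratio of summed counts, 15 in MYC against 5 in control libraries, was 3.31 after scaling for depth (95% exact interval 1.14 to 11.7). That interval pools the 3 libraries of each group and leaves out the spread between libraries, so it is too narrow. It also treats each count as a separate molecule. PCR copies of a molecule were not marked and can be counted more than once. The gene did not pass the expression filter, so the main fit made no test of it. With no expression filter it was tested and was not called in either direction. Most of these counts are at or near the 3 counts used as a floor.

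CDKN2D (ENSG00000129355.6, chromosome 19) encodes p19-INK4D, an inhibitor of CDK4 and CDK6 whose level varies through the cell cycle. It stood at 11.39, 9.32 and 8.49 TPM in MYC libraries 1, 2 and 3, against 23.26, 21.72 and 22.3 TPM in control libraries 1, 2 and 3. The groups did not overlap, with means of 9.73 ± 1.49 TPM in MYC libraries and 22.43 ± 0.778 TPM in control libraries (SD, n = 3 each). On the CPM scale its log2 fold change came to -1.12 ± 0.11 (SE, adjusted p = 5.9e-05, edgeR), and 10.5% of the genes tested had a lower one. Its transcripts are rich in GC (61.4%), and its log2 fold change was near the median of -1.13 over all genes with over 60% GC. With the GC offset it was 1.14-fold lower (log2 fold change -0.19 ± 0.07, adjusted p = 0.0476, edgeR). With that offset the call was lost without control replicate 1 (-0.16, adjusted p = 0.108), control replicate 3 (-0.21, adjusted p = 0.0732) or MYC replicate 2 (-0.13, adjusted p = 0.202).

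CDKN2C (ENSG00000123080.6, chromosome 1) encodes p18-INK4C, which is needed for cell cycle exit in plasma cell development in mice. It was the most abundant of the 7 in every library, at 88.18, 84.89 and 85.64 TPM in MYC libraries 1, 2 and 3, against 95.76, 88.16 and 91.07 TPM in control libraries 1, 2 and 3. The highest MYC library and the lowest control library were nearly equal on this scale. In CPM, which does not divide by length, the groups were apart: 93.69, 88.52 and 80.11 CPM in MYC libraries, against 111.3, 112.1 and 104.9 CPM in control libraries. On the CPM scale its log2 fold change came to -0.32 ± 0.07 (SE, adjusted p = 0.00335, edgeR). The call was lost on log2(TPM + 1), where the difference was -0.09 (adjusted p = 0.222 in limma, and 29.7% of all genes were called lower). It was lost too with each library's effective length as an offset, which gave -0.06 (adjusted p = 0.48 in edgeR). The GC offset gave -0.10 (adjusted p = 0.0884, edgeR), again no call, but a quadratic form of the same offset gave -0.13 and kept the call (adjusted p = 0.0403, edgeR). Its transcripts have a GC content of 55.0%.

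**Figure D2:**
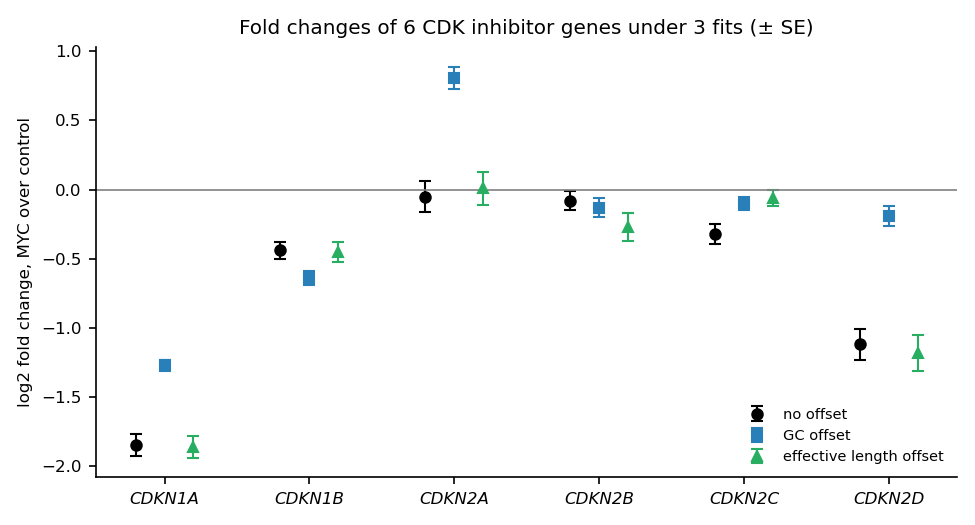
Log2 fold changes (MYC over control, y axis) with SE for the 6 genes tested, in CPM with no offset, with the GC offset and with the effective length offset. CDKN1A and CDKN1B stay below 0 under each of the 3 fits, while CDKN2A lies at -0.05 with no offset and at 0.81 with the GC offset.

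The effective length of CDKN2C differed between the groups. RSEM gives a gene an effective length in each library from its transcripts' lengths, weighted by their estimated share and shortened for the library's fragment lengths. For CDKN2C it was 1284.15, 1297.6 and 1243.61 bases in MYC libraries 1, 2 and 3, against 1556.22, 1603.03 and 1506.13 bases in control libraries 1, 2 and 3. Every MYC library thus had the shorter value, with means of 1275 ± 28.1 bases in MYC libraries and 1555 ± 48.5 bases in control libraries (SD, n = 3 each). Of all genes tested, 17.6% had shorter effective lengths in every MYC library than in every control library. The files list 3 transcripts of the gene, and in GENCODE 29 these are 2904, 2086 and 1220 bases long. The longest starts at the outer promoter printed above and the 2086-base one starts close to the middle promoter. The shortest starts further downstream, at position 50969944 of chromosome 1 (GRCh38). No counts per transcript were used here, so which of them changed was not tested.

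**Figure D3:**
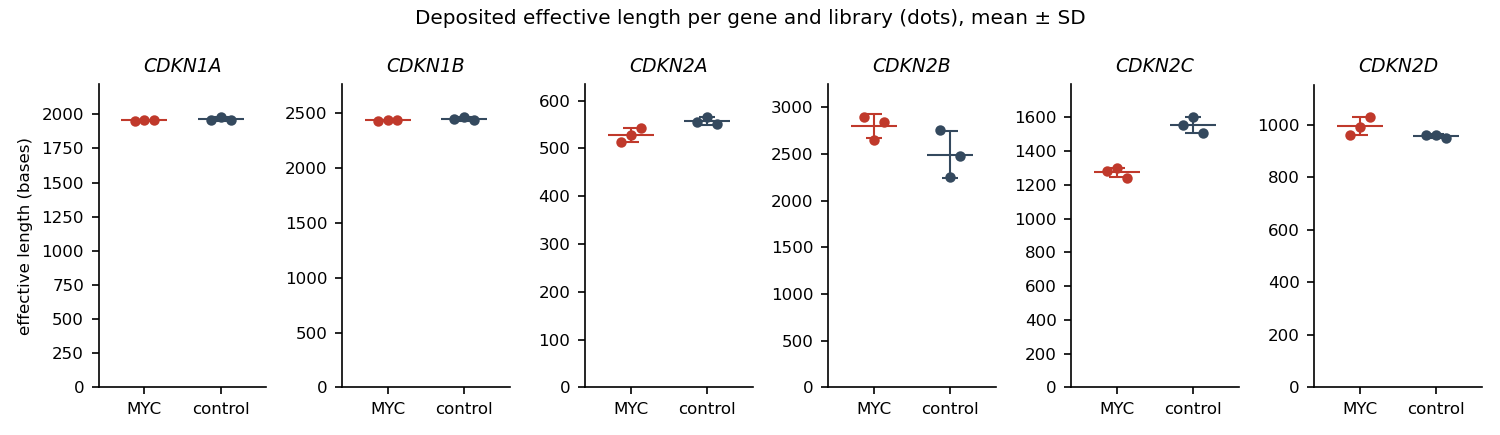
Effective length in bases (y axes from 0 and differing between panels) of the 6 genes tested, per library, with mean and SD. MYC libraries lie below every control library for CDKN2C and CDKN2A, at 1244 to 1298 against 1506 to 1603 bases for CDKN2C.

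CDKN2A (ENSG00000147889.12, chromosome 9) encodes the CDK4 and CDK6 inhibitor p16-INK4A and, from another first exon and reading frame, ARF, which restrains MDM2. Its gene-level value adds both products, which cannot be told apart here. It was second in abundance in every library, at 51.37, 46.61 and 41.8 TPM in MYC libraries 1, 2 and 3, against 52.51, 47.28 and 42.3 TPM in control libraries 1, 2 and 3. The groups overlapped almost wholly, with means of 46.59 ± 4.79 TPM in MYC libraries and 47.36 ± 5.11 TPM in control libraries (SD, n = 3 each). On the CPM scale its log2 fold change came to -0.05 ± 0.11 (SE, adjusted p = 0.699, edgeR). Its transcripts have a GC content of 60.8%, and with the GC offset it was called higher, 1.75-fold (log2 fold change 0.81 ± 0.08, adjusted p = 2.62e-05, edgeR). No direction is given for CDKN2A, since it turned with the way GC content was treated. Its effective length was 528.1 ± 14.1 bases in MYC libraries and 557.1 ± 7.76 bases in control libraries (SD, n = 3 each), without overlap, as for the 17.6% of genes given above. PCNA, named after its values were seen, also had a shorter mean, at 1122 bases in MYC libraries and 1138 bases in control libraries. Its groups overlapped, at 1116 to 1128 bases in MYC libraries and 1126 to 1152 bases in control libraries. How much of the CDKN2A gap came from fragment lengths and how much from transcript shares was not tested.

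CDKN2B (ENSG00000147883.9, chromosome 9) lies next to CDKN2A and encodes p15-INK4B, an inhibitor of CDK4 and CDK6 that TGF-beta induces in epithelial cells. Its level was 9.21, 10.88 and 11.53 TPM in MYC libraries 1, 2 and 3, against 12.43, 14.13 and 12.27 TPM in control libraries 1, 2 and 3. In TPM every MYC library was lower than every control library, by a small margin, but in CPM the groups overlapped, at 23.31 ± 1.29 CPM in MYC libraries and 24.67 ± 1.27 CPM in control libraries (SD, n = 3 each). On the CPM scale its log2 fold change came to -0.08 ± 0.07 (SE, adjusted p = 0.368, edgeR). With the effective length offset it was called lower, at -0.27 ± 0.10 (adjusted p = 0.0493, edgeR, with 29% of all genes called lower), and with the GC offset it was not, at -0.13 ± 0.07 (adjusted p = 0.136, edgeR). The libraries do not mark strand, so reads of CDKN2B-AS1, the antisense RNA across this locus, are not told apart from it. CDKN2B-AS1 itself averaged 2.363 CPM in MYC libraries and 2.457 CPM in control libraries.

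The other listed genes of the 9p21 region on either side of CDKN2A and CDKN2B were compared in the same fit. Of 5 genes, 4 were tested, 2 were called higher and none lower, with a median log2 fold change of 0.25. These few counts stand beside 28.8% higher and 32.1% lower over all genes. MTAP, an enzyme of methionine salvage, rose 1.39-fold, with 103.4 ± 2.24 CPM in MYC libraries and 74.32 ± 4.38 CPM in control libraries (SD, n = 3 each). With the GC offset, MTAP stayed higher (log2 fold change 0.20, adjusted p = 0.00113, edgeR). The list's counts became 1 higher and 2 lower, beside 27.1% higher and 32.2% lower over all genes.

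In TPM with no GC offset, the order of the genes differed between the groups. In MYC libraries the mean TPM ran CDKN2C, CDKN2A, CDKN1B, CDKN2B, CDKN1A, CDKN2D and CDKN1C, and the values of CDKN2B, CDKN1A and CDKN2D overlapped. In control libraries the order was CDKN2C, CDKN2A, CDKN1A, CDKN1B, CDKN2D, CDKN2B and CDKN1C, and no neighbours overlapped. The MYC order depends on the GC treatment, since with the GC offset CDKN2A was 1.75-fold higher and CDKN2D only 1.14-fold lower. All 7 genes summed to 186.7 ± 6.26 TPM in MYC libraries and 245.1 ± 12.1 TPM in control libraries (SD, n = 3 each). Carrying the control levels over with the fold changes under the GC offset gave 236.8 TPM for MYC, against 245.1 TPM in control libraries. Most of the difference was thus absent with that offset, which raised CDKN2A, a gene left without a direction. What part GC content itself had in the difference was not tested. With no offset, CDKN1A made up 5.56 ± 0.13% of the summed TPM in MYC libraries and 15.7 ± 0.47% in control libraries. CDKN2C made up 46.2 ± 0.84% in MYC libraries and 37.4 ± 0.92% in control libraries. Its share rests also on the CDKN2A level, which the GC offset raised, so no direction is given for the CDKN2C share. The INK4 genes together summed to 153.1 ± 6.46 TPM in MYC libraries and 174.4 ± 8.45 TPM in control libraries. The GC offset turned that direction, with a sum of 200 TPM for MYC against 174.4 TPM in control libraries, so none is given for the INK4 sum. CDKN2D over CDKN2C in TPM was 0.113 ± 0.015 in MYC libraries and 0.245 ± 0.0017 in control libraries, 2.17-fold lower, and 1.06-fold lower with the GC offset.

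**Figure D4:**
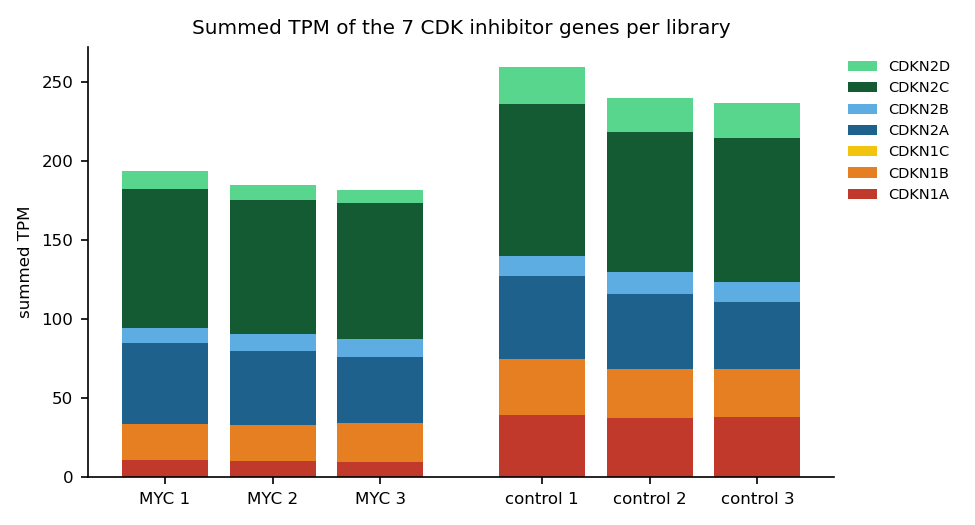
Summed TPM (y axis) of the 7 genes in each library, MYC on the left, with 1 colour per gene. The sums lie between 181.7 and 193.7 TPM in MYC libraries and between 236.7 and 259.0 TPM in control libraries, and CDKN2C is the largest block throughout.

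The kinases and cyclins that the inhibitors act on moved mostly the other way. Of 12 listed genes, 11 were tested, 8 were called higher and 2 lower (median log2 fold change 0.39), and with the GC offset the counts were again 8 and 2. All genes tested gave 28.8% higher and 32.1% lower, and 27.1% and 32.2% with the GC offset. CDK6, an INK4 target, averaged 51.93 CPM in MYC libraries and 11.91 CPM in control libraries (log2 fold change 2.12 ± 0.09, SE, adjusted p = 7.46e-07, edgeR, and 1.86 with the GC offset). Its partner in function CDK4 was more abundant and did not pass the test (log2 fold change -0.09, adjusted p = 0.274, edgeR), although with the GC offset it was called higher (0.21). CDK6 over CDK4 in TPM was 0.0262 ± 0.00093 in MYC libraries and 0.0066 ± 0.0016 in control libraries (SD, n = 3 each). CDK4 RNA thus remained the more abundant of the pair, and protein was not measured. CDK2, the main CIP/KIP target, rose 1.46-fold (log2 fold change 0.54, adjusted p = 6.95e-05, edgeR), and CCNB1, the mitotic cyclin B1, rose 1.62-fold. CCND1 and CCND2, D-type cyclins that compete with INK4 proteins for CDK4 and CDK6, fell and CCND3, the other D-type cyclin, rose. CCND1 fell by 0.62 (adjusted p = 7.66e-05) and CCND2 by 0.33 (adjusted p = 0.00267) on the log2 scale in edgeR, and the GC offset gave -0.32 and -0.53. CCND3, named after its values were seen, rose by 0.32 (adjusted p = 0.0208, edgeR), and by 0.99 with the GC offset. It was far the least abundant of these cyclins, at 12.65 CPM in MYC libraries and 10.08 CPM in control libraries. CCND1 averaged 546.6 CPM in MYC and 840.7 CPM in control libraries, and CCND2 263.7 and 330.7 CPM.

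RB1 and the E2F genes stand downstream of these kinases. Of 13 genes, 5 were called higher and 3 lower (median 0.14), and with the GC offset 3 were higher and 4 lower (median -0.05). With MYC replicate 2, control replicate 2 or control replicate 3 left out, the 5 called higher became 3, and shares of this size are near the 28.8% higher and 32.1% lower over all genes. RB1, which encodes the RB protein, did not pass the test, at 6.07 CPM in MYC libraries and 5.45 CPM in control libraries (log2 fold change 0.17, adjusted p = 0.222, edgeR, and -0.12 with the GC offset). TFDP1, a dimer partner of E2F proteins, rose 1.62-fold and E2F5, a repressive E2F, 1.91-fold, and both stayed called with the GC offset (0.78 and 0.64). E2F1, an activating E2F, averaged 55.69 CPM in MYC libraries and 109.6 CPM in control libraries. Its log2 fold change of -0.98 (adjusted p = 9.71e-05, edgeR) turned to 0.10 with the GC offset, and E2F1 is left without a direction.

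Among 13 genes of the ubiquitin ligases that degrade p27 and p21 and their cofactors, 8 were called higher and 2 lower (median 0.24), and 5 and 2 with the GC offset (median 0.07). The shares over all genes were 28.8% higher and 32.1% lower, and 27.1% and 32.2% with the GC offset. SKP2, the F-box protein that recognises p27, stood at 23.07 CPM in MYC libraries and 23.66 CPM in control libraries and did not pass the test (log2 fold change -0.04, adjusted p = 0.676, edgeR), and with the GC offset it was called lower (-0.27, adjusted p = 0.00164). CKS2, a small CDK-binding protein, rose 1.85-fold, with 137.0 CPM in MYC libraries and 74.06 CPM in control libraries (adjusted p = 5.36e-05, edgeR). SKP1 and RBX1, core parts of the SKP2 ligase, rose 1.40-fold each, and all 3 stayed called higher with the GC offset. CKS1B, of the same family as CKS2, was named after its values were seen. It averaged 251.1 CPM in MYC libraries and 234.5 CPM in control libraries. It did not pass the test (0.10, adjusted p = 0.163, edgeR) and was called lower with the GC offset (-0.14, adjusted p = 0.0369, edgeR). DTL, the substrate receptor that targets PCNA-bound p21, rose 1.28-fold, a call lost with the GC offset (0.08, adjusted p = 0.0858, edgeR).

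Of 26 listed transcription and chromatin regulators of the inhibitor genes, 24 were tested, 3 were called higher and 11 lower (median -0.13), and with the GC offset 4 were higher and 17 lower (median -0.23). Beside this, 28.8% of all genes were called higher and 32.1% lower, and 27.1% and 32.2% with the GC offset. ZBTB17, which encodes MIZ1, had 13.5, 12.45 and 8.864 CPM in MYC libraries 1, 2 and 3, against 28.77, 31.88 and 30.21 CPM in control libraries 1, 2 and 3. It fell 2.62-fold (log2 fold change -1.39 ± 0.14, SE, adjusted p = 6.24e-05, edgeR), and the GC offset left a 1.22-fold decrease. CBX7, a Polycomb protein that represses CDKN2A, fell 1.84-fold, or 1.10-fold after GC correction. FOXO4, of a family that activates CDKN1B, fell 1.57-fold (1.16-fold after GC correction). EED, a core Polycomb subunit, rose 1.47-fold and 1.20-fold with the offset.

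The last list holds kinases and phosphatases that act on the inhibitors or on their CDK targets. Of 15 genes, 5 were called higher and 6 lower (median -0.11), and with the GC offset 5 were higher and 3 lower (median 0.03). With no offset these counts are near the 28.8% higher and 32.1% lower over all genes, and the 5 became 3 without control replicate 2 or control replicate 3. CDC25A, a phosphatase that activates CDK2, rose 1.36-fold (log2 fold change 0.44, adjusted p = 0.000242, edgeR, and 0.47 with the GC offset). AKT1 and AKT2, kinases that phosphorylate p21 and p27, fell with log2 fold changes of -0.90 and -0.67, which shrank to -0.11 (adjusted p = 0.0607, call lost) and -0.10 (adjusted p = 0.0496) with the GC offset in edgeR. PIM3, of a kinase family that phosphorylates p21 and p27, was lower at -1.63 with no offset and called higher at 0.43 with the offset (adjusted p = 0.00187, edgeR), and it too is left without a direction.

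**Figure D5:**
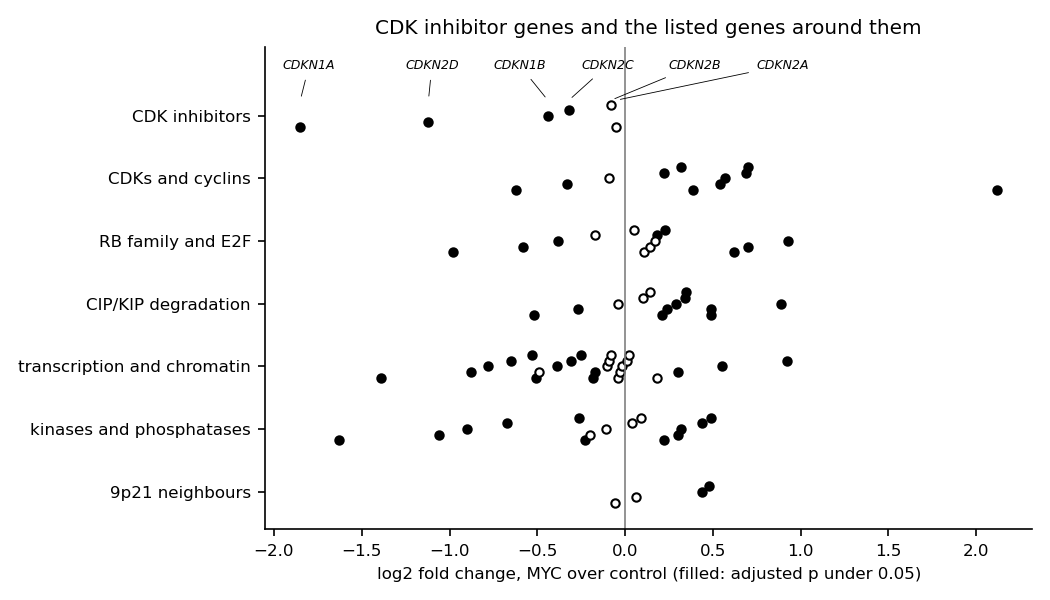
Log2 fold change in CPM with no offset (MYC over control, x axis) of each tested CDK inhibitor gene, top row, and of the tested genes of 6 lists, with filled dots for an adjusted p under 0.05. CDKN1A at -1.85 lies at the low end of its row, and the CDK and cyclin row is mostly right of 0, with CDK6 farthest at 2.12.

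For each tested member, the protein-coding genes with a mean of at least 5 CPM were ranked by how closely their profile followed it. The measure was the Euclidean distance between log2 CPM profiles centred on their mean, over the 6 libraries and among 9782 genes. CDKN1A was closest to ZFTRAF1 (distance 0.118) and FAM167A (0.124), and CDKN1B to TBC1D7 (0.0695) and SLCO1A2 (0.0698). CDKN2D was closest to PRXL2B (0.0582) and RFXANK (0.0722), and CDKN2C to TRIM65 (0.0475) and CERK (0.055). CDKN2A was closest to MRM3 (0.13) and MRPS24 (0.139), and CDKN2B to YAE1 (0.0443) and MED30 (0.0819). None of the 12 genes is another CDK inhibitor, which was likely beforehand with so few inhibitors among 9782 genes. With 3 libraries a group, a small distance largely means a like fold change, and regulation in common was not tested.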

How the data were processed

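Poly-A RNA of 3 MYC and 3 control libraries of U266 was sequenced after library preparation with a kit that keeps no strand information, per the labels' protocols. The submitters' processing notes name cutadapt, TopHat2 and build GRCh37, without versions or annotation. Per the file headers, the values deposited for each gene and library are an RSEM expected count, which need not be whole, an effective length in bases, and a TPM that the authors scaled for length and depth.

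Expected counts were rounded, filtered with filterByExpr (17679 of 57820 genes), scaled with TMM factors and tested with the quasi-likelihood F test of edgeR 4.0.16 in R 4.3.3 on group alone. P-values were adjusted by Benjamini-Hochberg over all genes tested, with calls under 0.05. CPM values use the same factors. The alternatives used DESeq2 1.42.0, limma 3.58.1 (voom, and trend on log2 TPM with a pseudocount of 1 or 0.1), RLE or no scaling factors, 2 other expression filters, offsets for effective length or GC content, a replicate block, and fewer libraries. For the GC offset, a loess curve (span 0.4) of log2 CPM against transcript GC content (GENCODE 29, known for 96.4% of genes tested) was subtracted in each library, and a quadratic loess was added after seeing the data. On data simulated from these libraries with 200 changed genes, the main test recovered 55.4%, 76% and 91.3% of 1.5-fold, 2-fold and 4-fold changes among 17345 genes. Of 170 calls 19 were false, a larger share than the 0.05 set for calls. The simulated data held no trend on GC content and far fewer changed genes than were called here. They therefore do not gauge errors that come from GC content.

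Symbols were matched to 51996 identifiers. Members and lists were chosen with earlier results of these data known. The genes named are the 7 members, MYC, up to 4 called genes of each list with the smallest adjusted p, a fixed set of regulators (RB1, SKP2, CDK4, CDK6, CCND1, CCND2) and, for each tested member, the 2 genes of closest profile. CDKN2B-AS1, CCND3, CKS1B and PCNA were added after their values were seen, as were the sums and ratios of members with fold changes under the GC offset. Some genes chosen for this comparison are not reported here. Promoters came from RefSeq (GRCh38.p14). Every pair of replicates differed by more than sampling noise, with a chi-square per degree of freedom of 7.78 or higher.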

Additional observations from a re-analysis of the deposited data

How the results depend on the processing

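CDKN1A and CDKN1B kept their direction and their call under all 25 alternatives. The number of CDK inhibitors called higher was 0 with no offset and 1 with the GC offset, with that offset plus the replicate block, and with the quadratic loess. Leaving out 1 library, with or without the GC offset, gave 0 to 1 called higher and 2 to 4 called lower. CDKN2A (log2 fold change -0.05) turned to 0.01 with the effective length offset, 0.81 with the GC offset, 0.82 with that offset and block, and 0.77 with the quadratic loess, and ran from -0.15 to 0.88 with 1 library left out. CDKN2B was called at -0.27 with the effective length offset, and ran from -0.19 to -0.04 with 1 library left out, called with the GC offset without control replicate 3 (-0.19) or MYC replicate 3 (-0.18). CDKN2C lost its call on log2(TPM + 1) and log2(TPM + 0.1) (-0.09 each), with the effective length offset (-0.06) and with the GC offset without and with the block (-0.10 each). With 1 library left out CDKN2C ran from -0.37 to -0.06 and CDKN2D from -1.23 to -0.13. With the GC offset, that offset and block, and the quadratic loess, other genes reversed: RB1 to -0.12, -0.11 and -0.12, CDK4 to 0.21, 0.21 and 0.18, E2F1 to 0.10, 0.10 and 0.08, and PIM3 to 0.43, 0.44 and 0.53. With 1 library left out these ran from -0.17 to 0.24 for RB1, -0.15 to 0.22 for CDK4, -1.11 to 0.14 for E2F1 and -1.74 to 0.47 for PIM3. Apart from the effect of the GC and length terms themselves, the cause was not tested. Genes called lower numbered 5671, and 3564 with a mean CPM of at least 5, where fewer genes were tested.

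List counts also moved by over 1.5 times: regulators of transcription called lower were 11 with no offset and 17 with the GC offset, and kinases and phosphatases called lower 6 and 3. Same-numbered MYC and control libraries correlated at -0.047, 0.078 and 0.11, and unlike-numbered ones at -0.164 to 0.103. With 3 libraries a group these values cannot decide whether the numbers pair them. The replicate block left CDKN1A at -1.85 and 4 members called lower. With 3 libraries a group and a depth that differed 5.85-fold between libraries, small changes can be missed. CDKN1C was tested only with no expression filter, where it was not called.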
